A study of Mus musculus with 31 samples.

Results

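The 8 genes described here, Mbp, Pmp22, Mag, Prx, Mal, Ncmap, Pllp and Cnp, encode structural proteins of the myelin sheath. They were taken by symbol from the 47729 genes of a count matrix, and each symbol matched 1 Ensembl identifier. The matrix holds 31 libraries from nerve pieces of mouse embryos carrying a Sox10:H2BVenus BAC transgene, a reporter that lights the nuclei of cells in which Sox10 is active and that guided laser microdissection of cryosections. All groups share this transgene, and the sources name no other allele or agent for them. By label, 4 libraries came from olfactory nerve at E11.5, 7 from olfactory nerve and 5 from the olfactory nerve layer (ONL, the outermost layer of the olfactory bulb) at E13.5, and at E16.5 there were 4 each from olfactory nerve, outer ONL and inner ONL and 3 from trigeminal nerve. Olfactory nerve was cut within the mucosa, in its lamina propria. The pieces came from 2 embryos at E11.5, from 3 embryos for trigeminal nerve and from 4 for every other group, so some pieces of the early groups share an embryo, and the p-values measure the spread between pieces. Inner and outer ONL were cut by their position, nearer to or farther from the bulb. The paper reports that this cut did not separate the inner and outer glial subpopulations of the ONL. It also reports that the nerve pieces held some neighbouring tissue, with genes of surrounding mesenchyme and of olfactory epithelium among those found. Olfactory bulb tissue was represented in the inner pieces. The trigeminal pieces came from sections that also gave olfactory ones, so tissues of E16.5 share embryos, and which libraries do is not given in the sources used here.

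Myelin is a spiral of glial membrane around an axon. In compact myelin the membrane faces adhere through proteins such as those encoded by Mbp and Pmp22, while the inner and outer edges and the channels of cytoplasm between them hold a different set, among them the products of Mag and Cnp. Schwann cells, the glia of nerves such as the trigeminal, form myelin from around birth. Olfactory ensheathing cells (OECs) wrap bundles of olfactory axons without myelinating them, although both cell types arise from neural crest and express the transcription factor gene Sox10.

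The labelled tissues were compared with their markers. The summed level of 10 Schwann cell markers was 1694 to 1863 CPM (counts per 1000000, scaled by the trimmed mean method over all 31 libraries) in trigeminal nerve, 360 to 587 in E16.5 olfactory nerve, 1060 to 1097 in outer ONL and 574 to 843 in inner ONL. The sum of 9 OEC markers was 583 to 645 CPM in trigeminal nerve, 1547 to 3610 in olfactory nerve, 19090 to 33510 in outer ONL and 20610 to 26930 in inner ONL. Sox10, which is on both lists and so in both sums, stood at 335 ± 37.0 CPM (SD, n = 3) in trigeminal nerve, 126 ± 37.5 (n = 4) in olfactory nerve, 645 ± 60.9 (n = 4) in outer ONL and 549 ± 132.5 (n = 4) in inner ONL. In trigeminal against olfactory nerve, 8 of 10 Schwann cell markers were called higher and none lower by the edgeR test described below. Of 9 OEC markers 1 was higher and 7 lower, beside 11.7% and 15.2% of all genes tested. In outer ONL against olfactory nerve, 4 Schwann cell markers were higher and 1 lower. There 8 OEC markers were higher and none lower, beside 10.3% and 15.4% of all genes. Total counts were 30221586 to 32508725 in the trigeminal nerve libraries, 13379107 to 16800784 in the other E16.5 libraries and 3512627 to 36705535 over all 31. In these pieces of mixed tissue, fewer cells of a type and less RNA per cell cannot be told apart.

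The labels of the early libraries need care. In a second grouping, which follows the published group means, 10 of the 16 libraries from E11.5 and E13.5 lie in another group than their label gives, while all 15 libraries from E16.5 keep theirs. It takes as E13.5 ONL the 4 libraries labelled E11.5 olfactory nerve together with replicate 1 of those labelled E13.5 olfactory nerve. Its E13.5 olfactory nerve holds the other 6 of that label and replicate 1 of those labelled E13.5 ONL, and its E11.5 olfactory nerve holds the remaining 4 labelled E13.5 ONL. Results from E11.5 and E13.5 are therefore given for both groupings, by label first.

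The genes lie on chromosomes 18 (Mbp), 11 (Pmp22 at 63128982 to 63159547, Cnp at 100574904 to 100591729), 7 (Mag at 30899176 to 30914873, Prx at 27499324 to 27520214), 2 (Mal at 127633226 to 127656695), 4 (Ncmap at 135369576 to 135398227) and 8 (Pllp at 94674894 to 94696278) of GRCm38. Of the Pllp exon bases in GENCODE M21, 54.2% are shared with the gene Gm45767, and of those of Prx, 5.38% with the gene Gm15541. Cnp shares 4.23% of its exon bases with Dnajc7. The libraries carry no strand, so reads over shared bases cannot be assigned to a gene by strand. Whether the annotation used for counting held these overlapping genes was not checked. Mbp also has an upstream start that gives the Golli transcripts, which are made outside myelin, and a count per gene does not separate them.

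Promoter sequences (RefSeq, GRCm38.p6) were at hand for 7 of the 8 genes, 13 starts in all. They are shown for the pair of genes with a SOX motif before a start, Mag and Cnp, and for 1 gene high and 1 gene low in trigeminal nerve without one, Prx and Pllp. Each run holds the 250 bases before the start on the strand of the gene, from 5′ to 3′, and the capitals mark ACAAAG or its reverse complement CTTTGT.
Mag, chr7:30914923-30915172, minus strand: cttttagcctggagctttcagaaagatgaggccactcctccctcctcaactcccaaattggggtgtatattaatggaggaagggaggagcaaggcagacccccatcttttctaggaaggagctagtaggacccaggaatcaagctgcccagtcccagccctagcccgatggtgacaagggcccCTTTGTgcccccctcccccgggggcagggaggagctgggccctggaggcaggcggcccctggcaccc
Cnp, chr11:100574689-100574938, plus strand: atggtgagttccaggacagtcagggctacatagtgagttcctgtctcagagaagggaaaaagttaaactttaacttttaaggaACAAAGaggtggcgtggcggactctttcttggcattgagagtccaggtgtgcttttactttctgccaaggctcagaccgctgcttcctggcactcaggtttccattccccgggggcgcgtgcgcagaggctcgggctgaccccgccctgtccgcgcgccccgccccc
Prx, chr7:27499074-27499323, plus strand: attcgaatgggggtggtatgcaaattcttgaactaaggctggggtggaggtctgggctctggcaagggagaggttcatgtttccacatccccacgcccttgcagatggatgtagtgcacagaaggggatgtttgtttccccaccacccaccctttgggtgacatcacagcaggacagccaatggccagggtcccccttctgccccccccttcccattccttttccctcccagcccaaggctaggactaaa
Pllp, chr8:94696243-94696492, minus strand: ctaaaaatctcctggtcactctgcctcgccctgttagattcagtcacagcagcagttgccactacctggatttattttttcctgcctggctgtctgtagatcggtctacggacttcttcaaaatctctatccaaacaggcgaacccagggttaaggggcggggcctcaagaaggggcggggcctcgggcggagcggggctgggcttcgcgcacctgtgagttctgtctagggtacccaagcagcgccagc
The motif lay 67 to 62 bases before the Mag start shown, on the opposite strand, and 167 to 162 bases before the Cnp start, on the same strand. A second Mag start holds the same site. ACAAAG was found on either strand in 5408 of 32851 promoter windows of this length, the related SOX core ACAATG in 10.7% and the EGR core GTGGGCG in 7.02%. The last 2 were in none of the 13 windows, which says only that these letters are not in these windows.

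At E16.5, 6 of the 8 genes, Mbp, Mag, Prx, Mal, Pmp22 and Cnp, were higher in trigeminal nerve than in olfactory nerve, outer ONL or inner ONL, by 2.58-fold to 79.8-fold. Ncmap and Pllp did the reverse against olfactory nerve, where both were higher than in trigeminal nerve. Against olfactory nerve all 8 genes passed the test (the quasi-likelihood test of edgeR, with p-values adjusted over 17800 genes by the Benjamini-Hochberg method and called under 0.05), with 6 higher and 2 lower in trigeminal nerve, where 11.7% of all tested genes were called higher and 15.2% lower. The libraries of the 2 tissues did not overlap for any of the 8, whereas they did not overlap for 35.1% of all tested genes. Against outer ONL 6 were higher and none lower, with 16.2% of all genes called higher and 15.1% lower, and against inner ONL 7 were higher and none lower, with 21.7% and 22.1%.

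**Figure D1:**
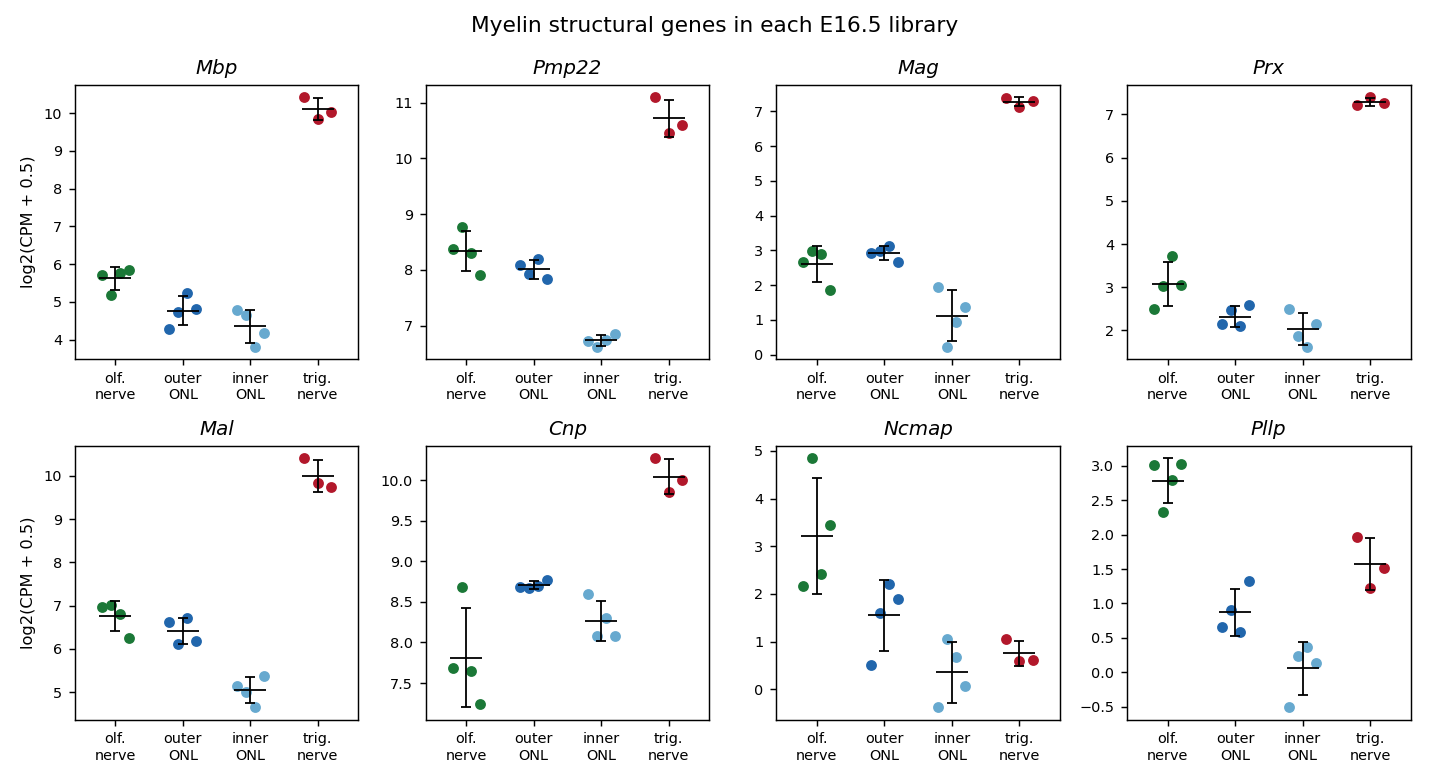
Level of each of the 8 genes, as log2(CPM + 0.5), in the 15 libraries from E16.5. Points are libraries, horizontal marks the mean and bars the SD of 4 libraries, or 3 for trigeminal nerve. The trigeminal nerve points lie above all others for Mbp, Pmp22, Mag, Prx, Mal and Cnp, and below all olfactory nerve points for Ncmap and Pllp.

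Mbp, whose product holds the cytoplasmic faces of compact myelin together, was at 1369, 922 and 1050 CPM in the trigeminal nerve libraries and at 51.6, 35.9, 53.8 and 56.8 CPM in those of olfactory nerve. It was at 19.1, 26.2, 37.0 and 27.3 CPM in outer ONL and at 26.8, 24.6, 13.6 and 17.7 CPM in inner ONL. Every trigeminal nerve library therefore exceeded the highest olfactory one many times over. The fitted difference was 21.5-fold against olfactory nerve (log2 fold change 4.43 ± 0.264 SE, edgeR adjusted p = 7.75e-09), 41.1-fold against outer ONL and 53.1-fold against inner ONL.

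Pmp22 encodes a tetraspan protein of compact peripheral myelin, and its duplication causes the most frequent inherited neuropathy of the Charcot-Marie-Tooth type. It was at 2188, 1409 and 1555 CPM in trigeminal nerve, against 330, 439, 315 and 241 CPM in olfactory nerve. In outer ONL it was at 272, 242, 294 and 228 CPM and in inner ONL at 106, 98.3, 106 and 116 CPM, so its lowest level at E16.5 was 98.3 CPM. The difference between trigeminal and olfactory nerve was 4.99-fold (log2 fold change 2.32 ± 0.182, edgeR adjusted p = 1.09e-07).

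Mag encodes a lectin of the glial membrane that faces the axon. It had 167, 140 and 158 CPM in trigeminal nerve and 5.81, 7.48, 6.95 and 3.15 CPM in olfactory nerve, a difference of 25.5-fold (log2 fold change 4.67 ± 0.332, edgeR adjusted p = 4.62e-08). Prx, whose product periaxin links the Schwann cell membrane to the basal lamina, had 149, 168 and 152 CPM in trigeminal nerve and 5.13, 7.61, 12.8 and 7.80 CPM in olfactory nerve. Prx differed by 17.9-fold (log2 fold change 4.17 ± 0.273, edgeR adjusted p = 2.16e-08). Over the 12 olfactory libraries of this stage neither gene exceeded 12.8 CPM, whereas its lowest trigeminal nerve value was 140 CPM for Mag and 149 CPM for Prx.

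Mal encodes a proteolipid that sorts membrane rafts, and Cnp the cyclic nucleotide phosphodiesterase of the cytoplasmic channels of myelin. Mal was at 1361, 917 and 857 CPM in trigeminal nerve and 125, 129, 112 and 76.3 CPM in olfactory nerve, a difference of 9.11-fold (log2 fold change 3.19 ± 0.223, edgeR adjusted p = 4.18e-08). Cnp was at 1234, 923 and 1028 CPM in trigeminal nerve and 205, 411, 200 and 151 CPM in olfactory nerve, a difference of 4.23-fold (log2 fold change 2.08 ± 0.245, edgeR adjusted p = 7.07e-06). Of the 6 genes higher in trigeminal nerve, Cnp had the smallest fitted difference, and against outer ONL it was 2.58-fold higher (edgeR adjusted p = 0.000305).

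Ncmap encodes a membrane protein found in non-compact myelin. It was at 4.02, 28.3, 4.81 and 10.4 CPM in olfactory nerve but only 1.59, 1.01 and 1.03 CPM in trigeminal nerve, 10.2-fold lower there (log2 fold change -3.35 ± 0.705, edgeR adjusted p = 0.00172). Olfactory nerve replicate 2 was far higher than the other 3, and without it the log2 fold change was -2.47 and the call held. Ncmap was not called between trigeminal nerve and either layer of the ONL, where the 95% interval of the log2 fold change was -2.45 to 0.16 against outer ONL and -0.9 to 1.83 against inner ONL.

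Pllp encodes plasmolipin, a tetraspan proteolipid of membrane rafts. It was at 7.54, 4.51, 6.43 and 7.64 CPM in olfactory nerve. It had 1.07, 1.38, 0.995 and 2.01 CPM in outer ONL, 0.202, 0.677, 0.785 and 0.602 CPM in inner ONL and 3.42, 1.84 and 2.35 CPM in trigeminal nerve. Trigeminal nerve was thus intermediate, 2.68-fold below olfactory nerve (log2 fold change -1.42 ± 0.405, edgeR adjusted p = 0.0144) and 4.399-fold above inner ONL (edgeR adjusted p = 0.000607), where the values rest on 3 to 10 counts. Against outer ONL the adjusted p was 0.105 by the same test. The call against olfactory nerve was lost without trigeminal nerve replicate 2 (log2 fold change -1.20, adjusted p = 0.0703) or replicate 3 (-1.34, 0.0557), and in the fits of all 31 libraries by label (-1.36, 0.228) or regrouped (-1.36, 0.072).

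**Figure D2:**
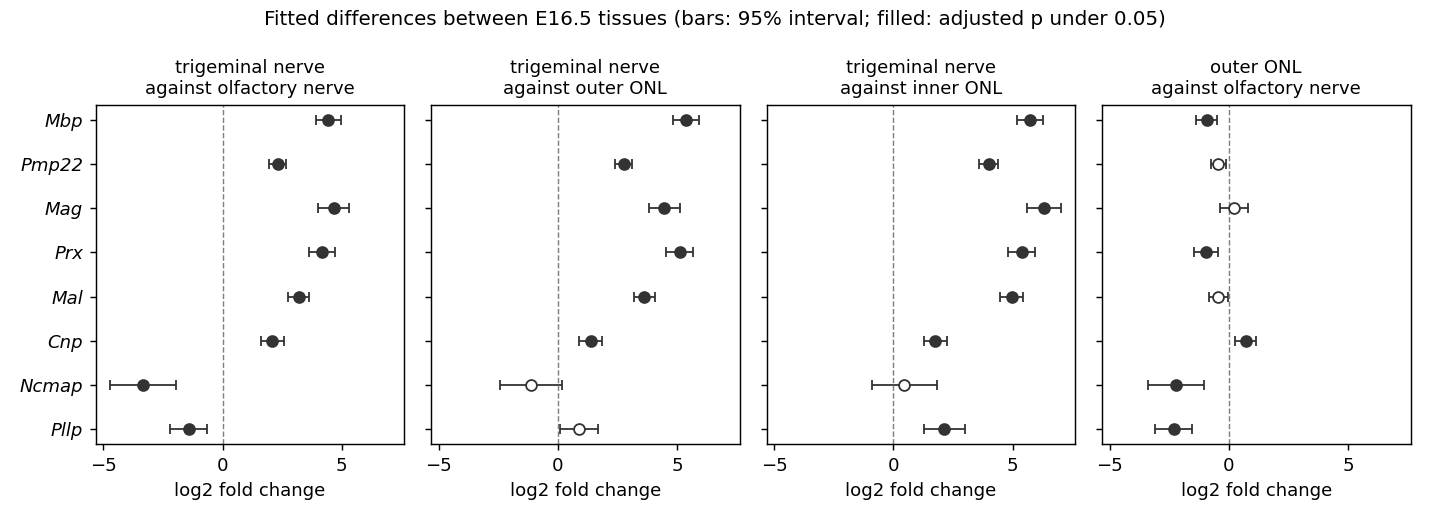
Fitted log2 fold change of each gene (edgeR) in 4 comparisons of E16.5 tissues, with the 95% interval as bars and filled points for an adjusted p under 0.05. Against olfactory nerve 6 genes lie right of 0 and Ncmap and Pllp left of it, and in outer ONL against olfactory nerve Cnp alone is filled on the right.

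Levels were also expressed per kilobase of annotated exon (RPKM), a scale that allows for exon length when genes are compared. The order in trigeminal nerve was Pmp22 (730 ± 176), Mal (376 ± 99.1), Cnp (292 ± 43.4), Mbp (131.5 ± 27.2), Mag (38.1 ± 3.28), Prx (28.0 ± 1.80), Pllp (1.22 ± 0.388) and Ncmap (0.542 ± 0.147; all SD, n = 3). In that order the libraries of neighbours overlapped only between Mal and Cnp. The level of Pllp, and so its place in the order, is uncertain by the share of its exon bases under Gm45767. The place of Mbp is uncertain as well, since its value depends on the length used. Its exons of all annotated transcripts, pooled, come to 8469 bases, against 2354 for Pmp22, 2778 for Mal and 3639 for Cnp. Transcripts shorter than the pooled exons make the value too low, and by how much was not tested. In olfactory nerve the order was Pmp22 (141 ± 34.6 RPKM, n = 4), Cnp (66.4 ± 31.7), Mal (39.8 ± 8.62), Mbp (5.85 ± 1.10), Ncmap (5.33 ± 5.08), Pllp (3.14 ± 0.697), Prx (1.49 ± 0.576) and Mag (1.44 ± 0.473). Each neighbour there overlapped the next, apart from Mal and Mbp. Mag and Prx, next above Pllp and Ncmap in trigeminal nerve, were the lowest of the 8 in olfactory nerve.

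Because the tissues differ in Sox10, each level was also divided by that of Sox10 in the same library. In trigeminal nerve Mbp stood at 283% to 407% of Sox10, against 20.0% to 54.7% in olfactory nerve. Pmp22 stood at 420% to 650% against 232% to 339%, Mag at 42.7% to 49.5% against 3.04% to 5.96%, and Prx at 41.1% to 56.6% against 4.23% to 10.5%. For Mal the ranges were 231% to 404% and 71.9% to 128%, and for Cnp 278% to 367% and 145% to 228%. The same 6 genes were thus higher in all trigeminal nerve libraries relative to Sox10, by ratios of medians from 1.66 (Cnp) to 9.60 (Mag), and 1.98% of the 17800 genes behaved so. Ncmap and Pllp were lower without overlap relative to Sox10, as were 70.6% of all genes.

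**Figure D3:**
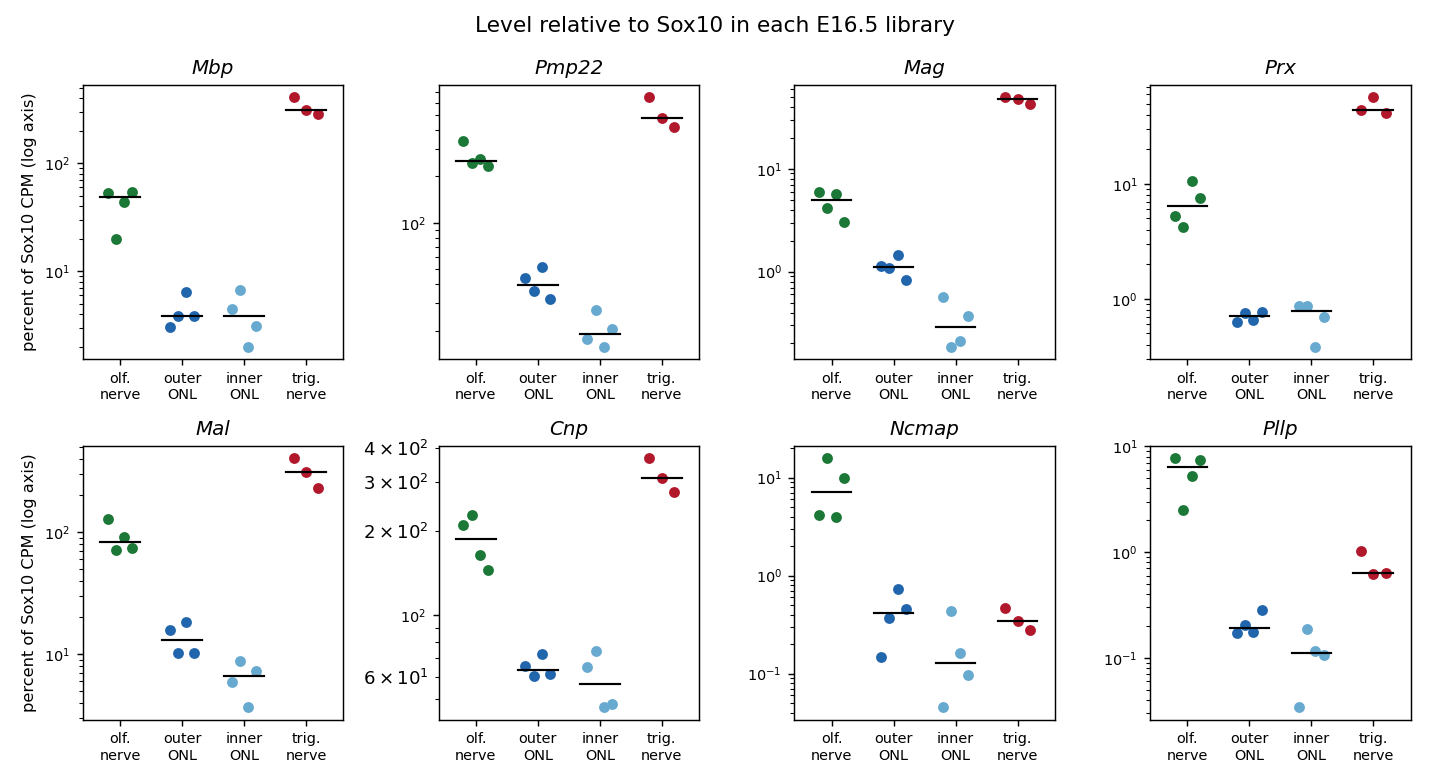
CPM of each gene as a percentage of the CPM of Sox10 in the same E16.5 library, on a log axis. Points are libraries and lines group medians. For Mbp, Pmp22, Mag, Prx, Mal and Cnp the trigeminal nerve points are the highest, whereas for Ncmap and Pllp the olfactory nerve points are.

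Within the olfactory system at E16.5, 1 gene was higher and 4 were lower in outer ONL than in olfactory nerve, where 10.3% of all tested genes were called higher and 15.4% lower. Pllp was 4.98-fold lower in outer ONL (log2 fold change -2.32 ± 0.389, edgeR adjusted p = 0.000269) and did not overlap between the tissues. Ncmap was 4.59-fold lower (-2.20 ± 0.601, edgeR adjusted p = 0.0113), with 0.920, 2.51, 4.12 and 3.23 CPM in outer ONL. Mbp was 1.91-fold lower (adjusted p = 0.00588) and Prx 1.92-fold lower (adjusted p = 0.0105) by the same test.

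Cnp was the exception, 1.64-fold higher in outer ONL (log2 fold change 0.71 ± 0.226, edgeR adjusted p = 0.0266), at 410, 406, 414 and 437 CPM. Olfactory nerve replicate 2, at 411 CPM, fell within this range and the other 3 libraries, at 151 to 205 CPM, below it. That library also had the highest sum of OEC markers of the 4, 3610 CPM against 1547 to 2161, and the highest Sox10, 180 CPM against 97.4 to 122. Their part in the result was not tested. Leaving out any 1 of olfactory nerve replicates 1, 3 or 4 or outer ONL replicate 4 ended the Cnp call (adjusted p 0.0621 to 0.0789, log2 fold change 0.59 to 0.68), whereas without olfactory nerve replicate 2 the log2 fold change was 1.09. The Ncmap call ended without olfactory nerve replicate 2 (-1.33, adjusted p = 0.0827) and the Prx call without replicate 3 (-0.62, 0.0614). Same-numbered libraries of these 2 tissues deviate together, and with the replicate number as a block the same count of 5 was called.

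Mag, Mal and Pmp22 were not called between outer ONL and olfactory nerve. The 95% interval of the log2 fold change was -0.37 to 0.8 for Mag, -0.83 to -0.05 for Mal and -0.76 to -0.11 for Pmp22, with edgeR adjusted p of 0.671, 0.122 and 0.0671. Pmp22 was called without olfactory nerve replicate 4 (adjusted p = 0.0399). In outer ONL, Mag had 7.13, 7.34, 8.25 and 5.86 CPM, overlapping with olfactory nerve. The epithelial marker sum was 153 to 507 CPM in olfactory nerve and 5.67 to 9.92 in outer ONL, and the sum for perineurium and fibroblasts 7672 to 13470 against 4608 to 9002 CPM. Markers called lower in outer ONL were 7 of 7 for epithelium, 7 of 7 for macrophages and 6 of 8 for perineurium and fibroblasts. They were also 5 of 6 tested for the oligodendrocyte lineage and 3 of 7 for endothelium, beside 15.4% of all genes. None of these lists had a marker called higher. Of 9 OEC markers 8 were called higher and none lower, beside 10.3% of all genes. What part these play in the 4 lower genes was not tested.

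Inner ONL was lower than outer ONL for 3 genes and higher for none, where 7.54% of all genes were called lower. Mag was 3.63-fold lower in inner ONL (edgeR adjusted p = 0.000799), with 3.36, 0.677, 1.41 and 2.11 CPM. Mal was 2.51-fold lower (adjusted p = 0.000309), with 34.7, 31.9, 24.6 and 41.3 CPM against 98.1, 69.0, 105 and 72.1 CPM. Pmp22 was 2.36-fold lower (adjusted p = 0.000132), and none of the 3 overlapped between the layers, where 9.31% of all genes were lower without overlap. These 3 genes were not called between outer ONL and olfactory nerve, but there the 95% intervals of Mal and Pmp22 held only lower values in outer ONL. The layers were cut by position, which by the paper's account did not separate inner from outer OECs. Markers of other cells moved in the same comparison. All 8 markers of perineurium and fibroblasts were lower in inner ONL (sums of 768 to 1867 against 4608 to 9002 CPM), and all 8 of olfactory bulb neurons were higher (439.5 to 860 against 15.2 to 176 CPM). Of 10 Schwann cell markers 5 were lower, and of 9 OEC markers none was called. Their part in the result was not tested. Fitted with all 31 libraries by label, none of the 3 was called (adjusted p of 0.0528, 0.358 and 0.0614), whereas all 3 were in the same fit regrouped (0.0135, 0.0303 and 6.35e-06). Against olfactory nerve, inner ONL was lower for 7 of the 8 genes, from 2.31-fold (Prx) to 14.0-fold (Ncmap), and Cnp was not called (log2 fold change 0.32, 95% interval -0.12 to 0.76), while 21.2% of all genes were called lower. Markers called lower in inner ONL were 8 of 8 for perineurium and fibroblasts, 7 of 7 for epithelium, 7 of 7 for macrophages and 6 of 7 for endothelium, and 7 of 8 for olfactory bulb neurons were higher, and their part was not tested either. Without olfactory nerve replicate 2 the log2 fold change of Ncmap moved from -3.81 to -2.93. In the same fit that of Cnp was 0.70 and it was called (edgeR adjusted p = 0.00188).

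Relative to Sox10 all 8 genes were higher in olfactory nerve than in outer or inner ONL without overlap, but so were 87.8% and 79.7% of all genes. For Cnp this turned the order of the tissues around, at 145% to 228% of Sox10 in olfactory nerve and 60.2% to 72.5% in outer ONL.

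Across stages, levels in olfactory nerve rose from E13.5 to E16.5 for 6 of the 8 genes in both groupings, where 12.4% of 19332 tested genes were called higher by label and 15.2% regrouped. All 6 were higher in every E16.5 library than in any at E13.5, as were 10.5% of all genes by label and 11.4% regrouped. By label, Ncmap was 10.2-fold higher (edgeR adjusted p = 0.000142), Mal 7.55-fold (0.00264), Mag 4.50-fold (0.00357), Cnp 2.99-fold (6.35e-06), Prx 2.88-fold (0.0247) and Pmp22 2.83-fold (0.00341). Regrouped, the folds were 9.82, 6.43, 4.68, 2.89, 2.80 and 2.498 in the same order. Without E16.5 olfactory nerve replicate 2 the log2 fold change of Ncmap moved from 3.35 to 2.46 by label and from 3.30 to 2.40 regrouped. Over the same interval Sox10 was 2.19-fold higher regrouped (edgeR adjusted p = 0.000359) and not called by label (1.64-fold, 0.157). The Prx call ended without E16.5 olfactory nerve replicate 3 in either grouping (adjusted p = 0.0939 and 0.0741), and by label with the replicate number as a block (0.054).

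Mbp and Pllp were not called between E13.5 and E16.5 olfactory nerve. By label Mbp ranged from 20.9 to 46.5 CPM at E13.5 with a median of 36.2, and the log2 fold change to E16.5 was 0.44 ± 0.208 (edgeR adjusted p = 0.124). In the olfactory libraries of all stages it stayed between 13.6 and 56.8 CPM in either grouping. The lowest of the 7 libraries labelled E13.5 olfactory nerve, at 20.9 CPM, is the one that the second grouping places in the ONL. For Pllp the median at E13.5 was 6.51 CPM by label and the log2 fold change 0.06 ± 0.595 (edgeR adjusted p = 0.954).

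**Figure D4:**
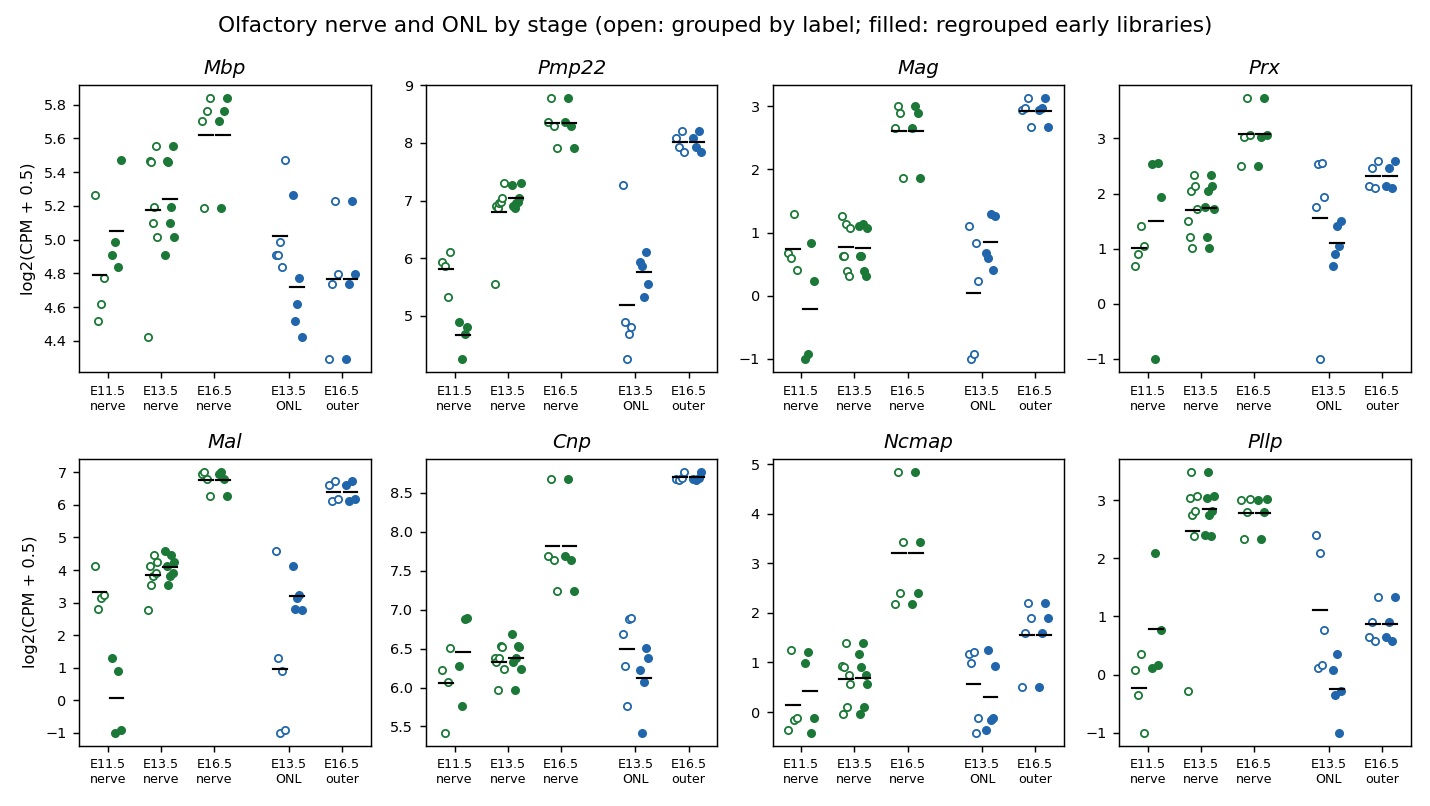
Level of each gene, as log2(CPM + 0.5), in olfactory nerve at 3 stages (green) and in ONL at E13.5 and outer ONL at E16.5 (blue). Open points are libraries grouped by label, filled points the second grouping of the early libraries, and lines are means. Pmp22, Mal and Pllp separate E11.5 from E13.5 olfactory nerve among the filled points.

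In the ONL, Cnp, Mal, Pmp22 and Mag were higher in E16.5 outer ONL than in E13.5 ONL in both groupings. Of all genes, 18.2% were called higher by label and 21.9% regrouped. The E13.5 ONL was not divided into layers, so a part is set against the whole. Inner ONL, not tested against E13.5 ONL, had means of 310, 33.1, 106 and 1.89 CPM for these genes in the same order. In E13.5 ONL the means were 93.7, 5.39, 50.9 and 0.730 CPM by label and 71.2, 9.385, 54.6 and 1.36 CPM regrouped. By label outer ONL was higher than E13.5 ONL by 4.45-fold for Cnp, 17.6-fold for Mal, 5.12-fold for Pmp22 and 10.9-fold for Mag (edgeR adjusted p from 7.51e-08 to 0.000285). Without E13.5 ONL replicate 1 the log2 fold change by label moved from 4.14 to 6.69 for Mal and from 2.36 to 3.36 for Pmp22. Regrouped, the differences of the 4 genes were 5.85-fold, 9.74-fold, 4.76-fold and 4.96-fold, and Pllp (3.54-fold, edgeR adjusted p = 0.00913) and Prx (2.53-fold, 0.0491) were called as well. The last was lost on leaving out any of the 9 libraries compared (adjusted p 0.0541 to 0.103). Sox10 was higher in outer ONL as well, 2.36-fold by label (edgeR adjusted p = 0.0159) and 4.53-fold regrouped (4.58e-08). Mbp was not called in either grouping, with 95% intervals of the log2 fold change of -0.69 to 0.2 and -0.34 to 0.49.

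The increase from E13.5 to E16.5 was compared between outer ONL and olfactory nerve, with the undivided ONL at E13.5 as the start for outer ONL. By label none of the 8 genes differed (edgeR, adjusted p from 0.114 to 0.665), while 12.5% of all genes did in either direction. At an unadjusted p under 0.05 there were 2, Mbp (0.0354) and Ncmap (0.0221), both smaller in outer ONL, and DESeq2 called 0. Regrouped, the increase was larger in outer ONL for Pmp22 (difference in log2 fold change 0.93 ± 0.230, edgeR adjusted p = 0.00602) and Cnp (1.02 ± 0.323, 0.0339), where 5.59% of all genes were called larger. Sox10 itself differed in the same direction (1.05 ± 0.340, 0.0388). The Cnp call ended in 10 of 20 fits that each left out 1 library (adjusted p up to 0.1), and the Pmp22 call in none of them. By label, leaving out E13.5 ONL replicate 1 called Pmp22 (1.86) and Mal (3.77), leaving out E13.5 ONL replicate 3 called Prx (-1.43), and leaving out E16.5 olfactory nerve replicate 2 called Cnp (0.95).

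At E13.5 the ONL had less Pmp22 than olfactory nerve in both groupings. By label it was the only gene called, 2.31-fold lower (edgeR adjusted p = 0.0229), where 8.81% of all genes were called lower. The 5 libraries labelled E13.5 ONL ranged from 18.5 to 154 CPM with a median of 27.6, and those labelled olfactory nerve from 46.4 to 158 CPM with a median of 124, so the groups overlapped. The call ended without any 1 of ONL replicates 2 to 5 (adjusted p 0.0591 to 0.076), and without ONL replicate 1 the log2 fold change moved from -1.21 to -2.22. Regrouped, Pmp22 was 2.44-fold lower (39.5 to 68.3 against 117 to 158 CPM, edgeR adjusted p = 7.41e-08), Pllp 17.8-fold lower (0 to 0.780 against 4.70 to 10.7 CPM, 2.83e-07) and Mbp 1.45-fold lower (0.0267), where 16.1% of all genes were called lower. The Mbp call ended without replicate 2 or 3 labelled E11.5 olfactory nerve, or without any 1 of E13.5 olfactory nerve replicates 1, 2 and 6 (adjusted p up to 0.0861). Mal was not called in either grouping (adjusted p = 0.124 and 0.0638), but by label it was called without E13.5 ONL replicate 1 (log2 fold change -4.13), as it was in the second grouping without the library labelled E11.5 olfactory nerve replicate 1 (-1.20).

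From E11.5 to E13.5 the 2 groupings differed most. By label only Pllp changed, 15.2-fold higher at E13.5 (edgeR adjusted p = 0.00111), where 9.31% of all genes were called higher. Its range was 0 to 0.780 CPM at E11.5 and 0.322 to 10.7 CPM at E13.5, and without E11.5 olfactory nerve replicate 3 the log2 fold change moved from 3.93 to 4.71. Regrouped, 4 genes were higher at E13.5, where 20.2% of all genes were. Mal rose 20.6-fold (0, 0.0323, 1.37 and 1.93 CPM at E11.5 against 11.1 to 23.6 CPM, edgeR adjusted p = 1.14e-07), Pmp22 5.27-fold (18.5 to 29.3 against 117 to 158 CPM, 1.1e-11) and Pllp 4.45-fold (0.582 to 3.75 against 4.70 to 10.7 CPM, 0.000747), each without overlap, as 12% of all genes were. The log2 fold change of Mal moved from 4.37 to 5.39 without the library labelled E13.5 ONL replicate 2, and that of Pllp from 2.16 to 3.10 without replicate 3. Mag was 2.70-fold higher with an adjusted p of 0.0466, and that call ended without any 1 of the libraries labelled E13.5 olfactory nerve replicates 2, 3, 4 and 7 or E13.5 ONL replicates 1, 2 and 3 (up to 0.149), while without E13.5 ONL replicate 4 the log2 fold change moved from 1.43 to 2.47. Over the same interval Sox10 was 5.58-fold lower (edgeR adjusted p = 8.78e-10) in the second grouping and not called by label (0.214).

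Against E13.5 olfactory nerve, E16.5 trigeminal nerve was higher for the same 6 genes as at E16.5 in both groupings, where 18.4% of all genes were called higher by label and 20.7% regrouped. Nerve and stage change together here, with no trigeminal group at E13.5, so they cannot be told apart. The differences by label ran from 13.1-fold for Cnp to 119-fold for Mag. Ncmap was at 0.467 to 2.14 CPM in the E13.5 olfactory nerve libraries by label, a range that holds the 3 trigeminal nerve values, and was not called (edgeR adjusted p = 0.954). Pllp was not called by label (0.147) and 2.72-fold lower in trigeminal nerve when regrouped (0.0254, with 21.2% of all genes called lower), a call that ended without trigeminal nerve replicate 2 or 3 (up to 0.124).

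How the 8 genes moved together was described by Pearson's r of log2(CPM + 0.5) over the 15 libraries from E16.5, which share their scaling and fall into 4 tissues. Among Mbp, Pmp22, Mag, Prx and Mal r was 0.921 to 0.993, and between Cnp and these 5 it was 0.75 to 0.848. Ncmap and Pllp had r of 0.717 with each other, of -0.137 to 0.097 (Ncmap) and 0.269 to 0.462 (Pllp) with those 5 genes, and of -0.339 and -0.192 with Cnp. Over the 12 olfactory libraries alone, r with Mbp, Pmp22, Prx and Mal was 0.715 to 0.809 for Pllp and 0.6 to 0.77 for Ncmap, but with Mag it was 0.415 and 0.435, and Mag with Mbp was 0.452. Cnp stood apart, with r of -0.598 to 0.305 with the other 7. A pseudocount of 2 in place of 0.5 gave the same picture for the 15 libraries, as for Mbp with Prx (0.984) and Ncmap with Pllp (0.67).

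**Figure D5:**
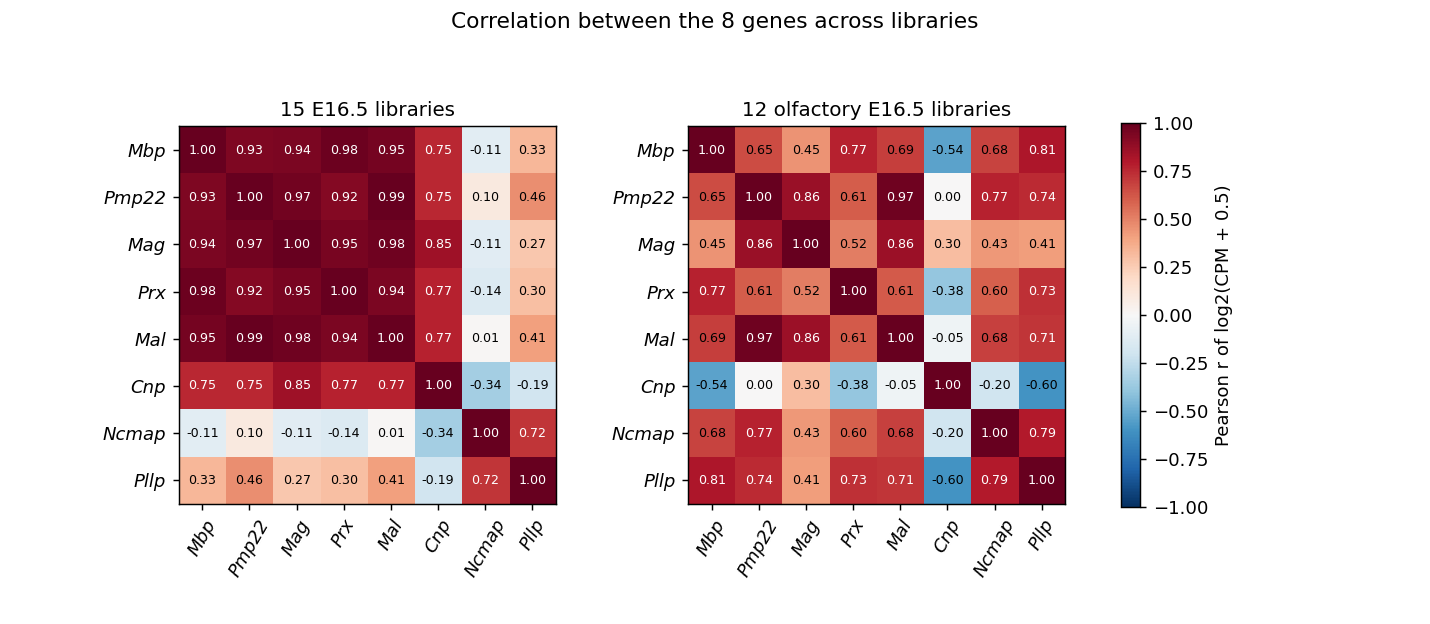
Pearson's r between the 8 genes, from log2(CPM + 0.5), over the 15 libraries from E16.5 (left) and over the 12 olfactory ones (right). On the left Mbp, Pmp22, Mag, Prx, Mal and Cnp form a block of r from 0.75 to 0.993 and Ncmap and Pllp lie outside it, whereas on the right Cnp is the gene that lies outside.

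Of the 13128 genes compared, those with a mean of at least 5 CPM in at least 1 tissue of E16.5, those whose pattern over the 15 libraries was most like that of Mbp were Krt80 (r = 0.988), Ctnnal1 (0.985), Dio3 (0.983), C1ql3 (0.981) and Gm9885 (0.980). Dio3, Gm9885 and Pax3 (0.982) were the most like Prx. For Mag they were Aatk (0.981), Hist1h1c (0.978) and Ngfr (0.976), for Mal Rab32 (0.994), Depdc7 (0.992) and Fkbp14 (0.989), and for Pmp22 Tmed3 (0.988), Rab32 (0.987) and Sema3b (0.987). Nr4a1 (0.971), Gpx3 (0.962) and Plekhb1 (0.956) were the most like Cnp. Ncmap was most like Fzd9 (0.958), Gm16070 (0.948) and Ucma (0.940), and Pllp most like Myo1h (0.967), Tcim (0.962) and Gstm1 (0.960). Fzd9, for example, had 9.40 CPM in olfactory nerve and 0.764 in trigeminal nerve, and Myo1h 9.57 and 3.20 CPM.

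Other genes of the sheath were read as 5 lists, whose counts stand beside the 11.7% of all genes called higher and 15.2% called lower in trigeminal against olfactory nerve. Of 19 regulators and signals of Schwann cell myelination, 15 were higher and none lower in trigeminal than in olfactory nerve, with a median log2 fold change of 0.97 beside -0.0263 for all genes tested. The list mixes factors of the promyelinating stage with factors of immature Schwann cells, and it includes Sox10. Its count therefore does not stand for a promyelinating state. Pou3f1, a transcription factor gene of the promyelinating stage, was at 2.60 ± 0.938 CPM (n = 3) against 0.123 ± 0.168 (n = 4; edgeR adjusted p = 0.00156). Pax3, a factor of immature Schwann cells, was at 19.8 ± 2.63 against 1.04 ± 0.490 CPM (1.76e-05), and Pou3f2 at 6.50 ± 2.47 against 0.485 ± 0.765 CPM (0.0189).

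Of 14 genes of myelin lipid synthesis, 9 were higher and none lower, with a median of 0.98. Ugt8a, whose enzyme makes galactosylceramide, was at 182 ± 30.9 CPM in trigeminal nerve and 6.25 ± 2.04 in olfactory nerve (edgeR adjusted p = 1.59e-08). Aspa was at 78.0 ± 21.6 and 8.41 ± 3.33 CPM (3.48e-07). Fa2h, the fatty acid hydroxylase of myelin lipids, had 3.95 ± 0.973 CPM in trigeminal nerve and 3 or fewer counts in each olfactory nerve library.

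Of 18 genes for junctions, adhesion and cytoskeleton of the sheath, 7 were higher and 1 lower, with a median of 0.34. Cadm4, an adhesion gene of the glial face of the internode, was at 24.4 ± 8.27 against 2.22 ± 0.935 CPM (edgeR adjusted p = 3.11e-06), and Itgb4, the laminin receptor subunit, at 66.3 ± 5.94 against 9.82 ± 2.94 CPM (4.63e-07). Gjc3, a connexin gene, was at 40.7 ± 13.54 against 9.33 ± 2.83 CPM (1.53e-05). The gene that was lower was Nfasc, at 1.03 ± 0.548 against 12.9 ± 4.41 CPM (5.47e-06).

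Of 16 other compact myelin and tetraspan genes, 13 could be tested, of which 6 were higher and 1 lower, with a median of 0.50. Cldn19, a claudin of Schwann cells, was at 11.49 ± 2.23 CPM in trigeminal nerve and 0.0618 ± 0.124 in olfactory nerve (edgeR adjusted p = 1.77e-06), while Cldn11, the claudin of oligodendrocyte myelin, was lower in trigeminal nerve, at 7.56 ± 3.80 against 24.0 ± 6.31 CPM (0.00726). Gpm6b was at 577 ± 93.9 against 238 ± 52.7 CPM (5.52e-05). Of 10 neuropathy genes 9 could be tested, of which 4 were higher and none lower, with a median of 0.30, led by Sh3tc2 at 108 ± 15.4 against 19.3 ± 5.63 CPM (edgeR adjusted p = 2.33e-06), Ndrg1 at 234.5 ± 39.05 against 78.9 ± 5.33 CPM (9.39e-05) and Arhgef10 at 107 ± 9.59 against 56.1 ± 5.57 CPM (0.001). Against outer ONL, where 16.2% of all genes were called higher and 15.1% lower, 14 of 19 regulators were higher and 1 lower, and 10 of 18 junction genes higher and 2 lower. The other lists went both ways, with 6 of 14 higher and 3 lower for lipid synthesis, 4 of 13 and 5 for compact myelin and 3 of 9 and 2 for neuropathy genes.

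Markers of other cells also differed between trigeminal and olfactory nerve. All 9 skeletal muscle markers were higher in trigeminal nerve, with sums of 136 to 205 CPM against 8.72 to 16.4 CPM, and Myod1 and Myog were at 3 or fewer counts in every olfactory nerve library. The sum for perineurium and fibroblasts was 16580 to 20390 against 7672 to 13470 CPM, with 2 of its 8 genes called higher and 2 lower. That for epithelium was 19.7 to 30.8 against 153 to 507 CPM, with 6 of its 7 genes called lower and none higher (median log2 fold change -5.23). Endothelial markers had none called of 7 and macrophage markers 1 lower of 7. Against outer ONL, 9 of 9 muscle, 5 of 7 endothelial, 5 of 7 macrophage and 4 of 8 perineurium and fibroblast markers were higher in trigeminal nerve, and against inner ONL 9, 5, 6 and 7. The part of these in the differences of the 8 genes was not tested. Among 10 markers of the oligodendrocyte lineage, the other glia that use many of these genes, Nkx2-2 and Opalin were at 3 or fewer counts in all E16.5 libraries, Olig2 was so in trigeminal nerve and Mobp in the 12 olfactory libraries. Their sum was 245 to 348 CPM in trigeminal nerve and 354 to 463 in olfactory nerve. It includes Pdgfra, which is also on the list of perineurium and fibroblasts, so the sum is not particular to this lineage. Of the 10, 6 could be tested, of which 0 were called higher and 3 lower in trigeminal than in olfactory nerve, with a median log2 fold change of -1.88. The sums for olfactory sensory neurons, trigeminal axons and olfactory bulb neurons were 474 to 550, 15.9 to 17.9 and 204 to 227 CPM in trigeminal nerve and 459 to 818, 60.9 to 100 and 93.3 to 196 CPM in olfactory nerve. Called higher and lower in trigeminal nerve were 0 and 4 of 7 tested, 2 and 3 of 7, and 2 and 2 of 8. The median log2 fold changes were -2.35, 0.45 and -1.66, so these sums do not stand for most members of their lists.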

How the data were processed

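The authors aligned paired-end SMART-seq v4 reads to mm10 with TopHat2 2.1.0 and counted reads per gene with HTSeq, and the deposited table holds these raw counts for 31 libraries and 47729 genes. The kit keeps no strand and amplifies picograms of RNA. A blank row (1) was left out, every column matched a sample (0 unmapped), and 47224 identifiers had a symbol. Columns were assigned by GEO label, and the early libraries also by the grouping of the published group means. Ratios of scaled group means recomputed from the counts differed from the published ones by at most 0.000833% in that grouping (1462 to 1552 genes a group) and by up to 1630% by label, so both are given.

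Genes were filtered by filterByExpr, scaled by TMM and tested by the quasi-likelihood test of edgeR 4.0.16 (R 4.3.3) with Benjamini-Hochberg adjustment at 0.05. Comparisons within E16.5 used 1 fit of 15 libraries (17800 genes) and those with earlier stages 1 fit of 31 libraries (19332 genes). Standard errors were derived from the test statistic and intervals are 95%. A level of 3 counts or fewer was taken as the floor. RPKM used the exon union of GENCODE M21 on GRCm38. The fits were tested on simulated counts. The 8 genes and all lists were chosen with earlier results of these data known. Named from every list were at most 3 called genes that were highest in trigeminal over olfactory nerve by fold and 2 that were lowest, if at 1 CPM or more in either. The genes most like Mbp (5) and the other members (3 each) were ranked by r. 1 gene that this rule picks is not reported here.

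Alternatives were DESeq2 1.42.0, total-count scaling, upper-quartile scaling, a stricter filter and none, and glmTreat at a log2 fold change of 1. Further ones were other sets of libraries in the fit, omission of each library in turn and a block for the replicate number. Same-numbered libraries of E16.5 olfactory nerve and outer ONL deviated together (r of 0.24 to 0.488 over 11828 genes, against -0.382 to 0.367 for other pairs). The replicate number was run as a block only as an alternative, and the main fits hold no block. That block spans all tissues in a fit and not only this pairing. The labels give only the numbers and not which E16.5 libraries share an embryo, so this pairing rests on the correlations. Other pairs of E16.5 tissues held a same-numbered pair with r of 0.1 or less. Trigeminal nerve replicate 2, for example, had r of -0.303 with olfactory nerve replicate 2 and 0.503 with olfactory nerve replicate 3. For those tissues the block rests on the number alone.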

Additional observations from a re-analysis of the deposited data

Results flagged for a closer look

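Of 72 groups of 4 to 7 libraries tested for a library far from the rest, 6 held such a library. The cutoff is set for about 1 in 20 among independent groups of normally distributed values. These groups share libraries and include genes near the floor, so no excess can be read from this count. Replicate 1 of the libraries labelled E13.5 ONL had 153.9 CPM of Pmp22, where the next had 29.33 and the lowest 18.54, and 23.61 CPM of Mal, where the next had 1.933 and the lowest 0. Replicate 1 of the libraries labelled E13.5 olfactory nerve had 46.36 CPM of Pmp22, where the other 6 had 116.7 to 157.9. Both libraries are among the 10 that the second grouping places elsewhere, and in that grouping neither stands apart for these genes. Replicate 5 labelled E13.5 ONL had 43.84 CPM of Mbp, where the next had 31.14 and the lowest 28.15. Replicate 2 labelled E11.5 olfactory nerve had 1.871 CPM of Ncmap, where the next had 0.4151 and the lowest 0.2765. In the second grouping, the library labelled E11.5 olfactory nerve replicate 1 had 16.87 CPM of Mal within E13.5 ONL, where the next had 8.925 and the lowest 6.265, and with 3512627 counts it was the shallowest of all.

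Regrouped, the change from E13.5 to E16.5 was larger in outer ONL than in olfactory nerve for Pmp22, by 0.93 on the log2 scale (edgeR adjusted p = 0.00602), and for Cnp, by 1.02 (0.0339). Grouped by label, the same differences were 0.855 (0.349) and 0.573 (0.265). In both groupings outer ONL is set against an undivided ONL at E13.5.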

How the results depend on the processing

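No fitted difference of a called gene changed its sign under any alternative run. Of 108 recounts that left out no library, 96 stayed within 1.5 times the number of genes called. The others were outer ONL against olfactory nerve (5 called, 1 with glmTreat), inner against outer ONL (3 called, 5 with DESeq2, 1 with glmTreat, 0 in the fit of all 31 libraries by label), E13.5 ONL against olfactory nerve (1 called, 2 with DESeq2, 0 with glmTreat, 3 regrouped), E13.5 against E11.5 olfactory nerve (1 called, 2 with DESeq2, 2 with total-count scaling, 4 regrouped), E16.5 against E13.5 olfactory nerve (6 called, 1 with glmTreat) and the difference of changes (0 called, 2 regrouped). glmTreat asks for a change beyond 2-fold by construction, and for the rest the cause was not tested.

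Leaving out 1 library at a time, the numbers called were 7 to 8 for trigeminal against olfactory nerve, 6 to 6 against outer ONL, 7 to 7 against inner ONL, 3 to 5 for outer ONL and 7 to 8 for inner ONL against olfactory nerve, 3 to 4 for inner against outer ONL, 0 to 3 for E13.5 ONL against olfactory nerve, 1 to 2 for E13.5 against E11.5, 5 to 6 for E16.5 against E13.5 olfactory nerve, 4 to 4 for outer against E13.5 ONL, 6 to 7 for trigeminal nerve against E13.5 olfactory nerve and 0 to 2 for the difference of changes. Pllp was called between inner and outer ONL without outer ONL replicate 1 or inner ONL replicate 3, between E13.5 ONL and olfactory nerve by label without replicate 1 of either, and between trigeminal and E13.5 olfactory nerve by label without E13.5 olfactory nerve replicate 1. Pmp22 was called between E13.5 and E11.5 by label without that library. Regrouped, Ncmap was called between outer and E13.5 ONL without the library labelled E11.5 olfactory nerve replicate 2 or outer ONL replicate 1, and Pllp in the difference of changes without that labelled E11.5 olfactory nerve replicate 3.

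With the replicate number as a block the counts were 8, 6, 7, 5, 3 and 7 for the comparisons within E16.5, and Prx lost its call between E13.5 and E16.5 olfactory nerve (adjusted p = 0.054 by edgeR), the only call the block ended. Total-count scaling moved the median of all genes in trigeminal against olfactory nerve from -0.0263 to -0.2228 and the calls from 2086 higher and 2702 lower to 1352 and 3811. Mag and Mal had 3 or fewer counts in 2 of the libraries labelled E13.5 ONL and Prx in 1, all with 29405578 counts or more in total, Pllp in 2 and Ncmap in 1 of those labelled E11.5 olfactory nerve, and Pllp in 1 of inner ONL. Where pieces of an early group share an embryo, their intervals do not cover differences between embryos.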
